A study of Saccharomyces cerevisiae with 6 samples.

Results

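Iron transport in Saccharomyces cerevisiae, baker's yeast, was followed through 10 genes: the ferroxidase and permease of the cell surface (FET3, FTR1), their vacuolar counterparts (FET5, FTH1), the copper-loading proteins (CCC2, ATX1), the transporters that work without oxygen (FET4, SMF3) and the regulators AFT1 and AFT2. They were chosen by gene symbol in the platform annotation, and all 10 were found, each as 1 feature, among 6470 genes or unnamed features. Yeast grown to exponential phase in oxygen-free bottles, in synthetic complete medium with added ergosterol, unsaturated fatty acids and amino acids, was aerated for 5, 10, 20, 60 or 120 min. Total RNA of each time was compared on 2-colour arrays with 1 pool of RNA from the same bottles before aeration, and a sixth sample set that pool against itself. Each time is 1 sample from a separate flask, made by the submitters from a dye-swap pair of arrays, and the labels name no strain or genotype. Levels are given as the log2 of aerated RNA over pooled anaerobic RNA, where 1 is a doubling. Their direction was taken from the sample titles and is likely, not settled, since the labels list both dyes for both channels and name the channels in one order at 5 and 10 min and in the other at 20, 60 and 120 min. Across these orders, the 10 min sample correlated at r = 0.646 with 20 min (6081 genes), 0.095 with 60 min and 0.478 with 120 min. The 5 min sample correlated with the same times at 0.151, 0.025 and 0.03. Within an order r was 0.382 for 5 and 10 min, 0.3 for 20 and 60 min, 0.422 for 20 and 120 min and 0.192 for 60 and 120 min. Were the direction turned, higher would read lower and each rank from the top would be one from the bottom. The log base was read from the values. A change in RNA per cell and a change in the share of responding cells cannot be told apart in such cultures.

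Yeast takes up iron by a high-affinity route in which Fet3, a multicopper oxidase, oxidises ferrous iron and hands it to the permease Ftr1. The oxidation uses molecular oxygen, so the route cannot work without it. Fet3 receives its copper in the secretory pathway from the copper pump Ccc2, which is loaded by the chaperone Atx1. Fet5 and Fth1 form a like pair on the vacuole membrane. Fet4, a low-affinity transporter of ferrous iron and other metals, and Smf3, a transporter that releases iron from the vacuole, use no oxygen. Aft1 and its paralog Aft2 activate iron uptake genes when iron is short, and the repressor Rox1, made under heme-dependent control when oxygen is present, is known to repress FET4.

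All 10 genes had a value at every aeration time, and 5 of them (FET3, FET5, FTH1, ATX1 and FET4) also had one in the self-hybridisation, between -0.34 and 0.31. The 60 min sample had the widest ratios of the series, with a median absolute deviation over all genes of 0.551, against 0.183, 0.243, 0.230 and 0.233 in the samples of 5, 10, 20 and 120 min. For FET3 and FTR1 its values are therefore also given by rank and by that deviation. Counted in that deviation above the sample's median, FTH1 lay at 2.07 at 60 min and 2.35 at 120 min. ATX1 lay at 1.77 at 60 min and 2.66 at 120 min, and AFT1 at 1.73 and 3.36. SMF3 lay at 1.77 at 60 min and 2.02 at 5 min, and CCC2 at 1.34 at 60 min and 2.95 at 10 min. The time of the 60 min sample carries a doubt as well. Its extraction text speaks of 20 min of aeration, while its title, source name, description and treatment text give 60 min, the time used here. In the self-hybridisation, a single array, 1.02% of 3521 genes were at least 2-fold higher and 2.98% at least 2-fold lower.

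**Figure D1:**
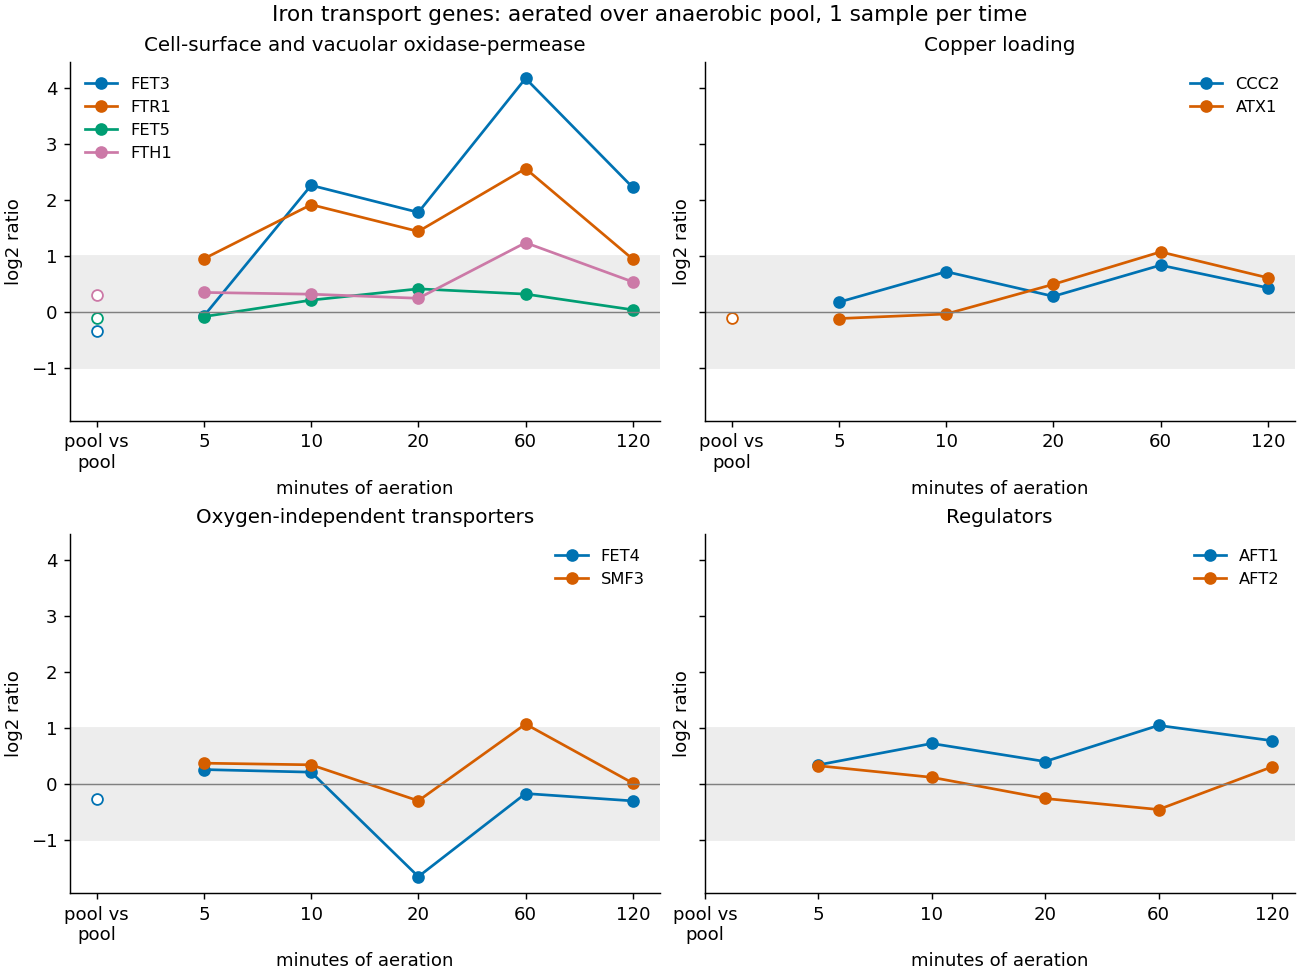
Log2 ratio over the anaerobic pool (vertical axis) against minutes of aeration (horizontal axis, times evenly spaced), 1 sample per time, in 4 panels by role; open circles are the pool against itself and the grey band marks less than 2-fold. FET3 and FTR1 stand above the band at 10, 20 and 60 min, FET4 alone lies below it, at -1.65 at 20 min, and FET5, CCC2 and AFT2 stay inside it at every time.

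The cell-surface pair was the part of the set that stood furthest above the pool. Of its vacuolar counterparts, FET5 stayed close to the pool at all 5 times and FTH1 was 2.35-fold higher at 60 min and within 1.5-fold of the pool at the other 4. FET3 was at -0.074, 2.26, 1.78, 4.17 and 2.22 at 5, 10, 20, 60 and 120 min, against -0.34 in the self-hybridisation. It was thus level with the pool at 5 min and 4.78-fold, 3.42-fold, 18.0-fold and 4.66-fold higher afterwards. Of all genes measured in a sample, FET3 ranked 3731 of 6115 at 5 min, then 10 of 6091, 27 of 6292, 2 of 5883 and 4 of 6264 from the top.

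FTR1, the permease that Fet3 works with, was at 0.95, 1.91, 1.43, 2.56 and 0.94 at the 5 times. It had already ranked 74 of 6115 genes at 5 min, the one time at which it exceeded its oxidase, and it ranked 19 of 6091, 59 of 6292, 33 of 5883 and 121 of 6264 later. The difference of FET3 minus FTR1 within a sample was -1.02, 0.35, 0.34, 1.61 and 1.28 over the same times. FTR1 was at least 1.5-fold higher at all 5 times, as were 15 of the 5771 features with a value at every time (0.26%), FTR1 included. This threshold was applied to it after its values were seen.

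The step between 5 and 10 min, from which the pool cancels, was 2.33 for FET3, rank 12 from the top of 6018 genes, and 0.97 for FTR1, rank 140. From 20 to 60 min FET3 gained 2.39 (rank 28 of 5874) and FTR1 1.12 (rank 470), and from 60 to 120 min they changed by -1.95 and -1.62. Counted in median absolute deviations from the sample's own median, FET3 lay at -0.41, 9.3, 7.74, 7.39 and 9.56 over the 5 times. On that scale 60 min was not its peak: the value of 7.39 was the lowest of the 4 later times, and 120 min was the highest. FTR1 lay at 5.18, 7.88, 6.26, 4.47 and 4.08, highest at 10 min.

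**Figure D2:**
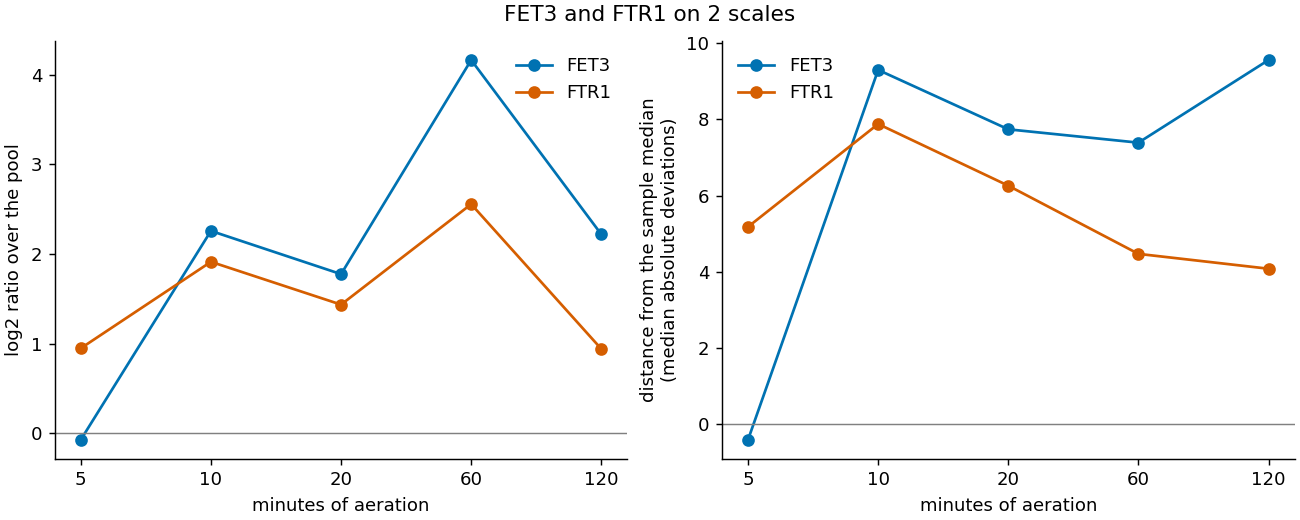
FET3 and FTR1 by minutes of aeration (evenly spaced, 1 sample per time), left as log2 ratios over the pool and right as the distance from the sample's median in median absolute deviations over all genes. On the left both genes are highest at 60 min, at 4.17 and 2.56; on the right FET3 is highest at 120 min, at 9.56, and FTR1 at 10 min, at 7.88.

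FET5, the vacuolar oxidase, was at -0.086, 0.21, 0.41, 0.32 and 0.036, and at -0.10 in the self-hybridisation, so that no time reached 1.5-fold. FTH1, the vacuolar permease, was at 0.35, 0.31, 0.24, 1.23 and 0.53. Its value in the self-hybridisation, 0.31, was close to those of the first 3 times, and only the 60 min value reached 2-fold. FET3 exceeded FET5 in 5 of 5 samples, by 0.012, 2.05, 1.37, 3.85 and 2.18 at 5, 10, 20, 60 and 120 min, a mean difference of 1.89 ± 1.39 (SD, n = 5). FTR1 exceeded FTH1 in 5 of 5 samples as well, by 0.60, 1.598, 1.19, 1.32 and 0.40, with a mean of 1.02 ± 0.50 (SD, n = 5). The exact two-sided sign-flip permutation test gave p = 0.0625 for each pair, also 0.0625 after adjustment over the 2 pairs, which is the smallest p that 5 samples allow and does not pass 0.05.

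**Figure D3:**
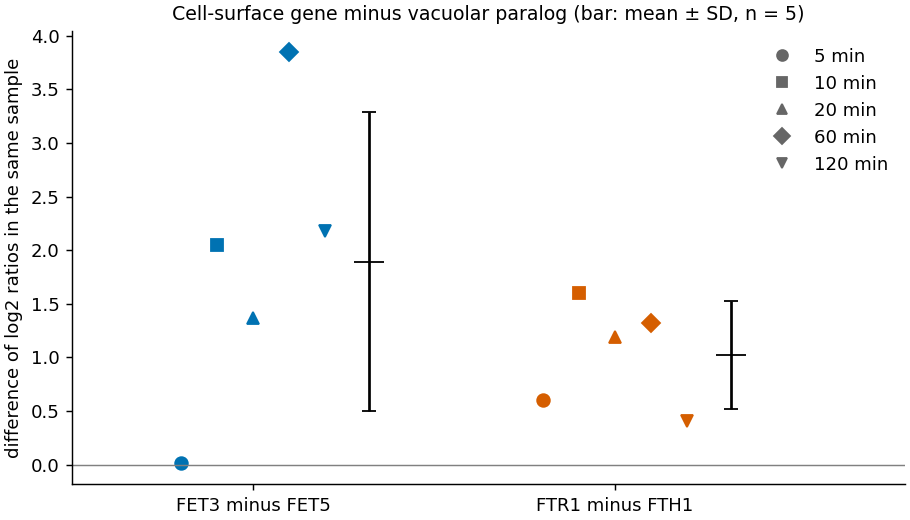
Difference of log2 ratios within the same sample (vertical axis), for the cell-surface gene minus its vacuolar paralog; symbols are the 5 aeration times and the black bar is the mean ± SD (n = 5). All 10 differences lie above 0, from 0.012 for FET3 minus FET5 at 5 min to 3.85 at 60 min.

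The copper-loading genes stayed within smaller ratios and took different courses. CCC2, the pump that passes copper to Fet3, was above the pool at all 5 times, at 0.17, 0.72, 0.28, 0.83 and 0.43, and its 10 min value ranked 281 of 6091 genes. ATX1, the copper chaperone that loads it, was level with the pool early, at -0.12 and -0.039 at 5 and 10 min, and at 0.49, 1.07 and 0.61 at 20, 60 and 120 min, against -0.11 in the self-hybridisation. CCC2 minus ATX1 was 0.29 and 0.76 at 5 and 10 min and -0.21, -0.24 and -0.18 at the later times. Each of the later values was smaller than its sample's median absolute deviation over all genes, 0.230, 0.551 and 0.233. At those times the 2 genes were thus close to each other, and their difference was not tested.

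FET4, the low-affinity transporter, was the one gene of the set that was at least 2-fold below the pool at any time. It was at 0.26 and 0.21 at 5 and 10 min, at -1.65 at 20 min, and at -0.17 and -0.30 at 60 and 120 min, beside -0.26 in the self-hybridisation. The 20 min value, a 3.15-fold lower level, ranked 45 from the bottom of 6292 genes and is a single sample. Its step between 10 and 20 min, -1.86, was rank 7 from the bottom of 6081 genes, and the step back between 20 and 60 min, 1.48, was rank 175 from the top of 5874. In the other 4 samples FET4 was within 1.5-fold of the pool. The excess of FET3 over FET4 was -0.33, 2.05, 3.43, 4.34 and 2.52 at 5, 10, 20, 60 and 120 min.

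SMF3, the vacuolar iron exporter, was at 0.37, 0.34, -0.30, 1.07 and 0.014. Like FET4 it was lowest at 20 min, with a step of -0.64 from 10 min (rank 270 from the bottom of 6081). Its level at 20 min ranked only 1207 from the bottom of 6292 genes. That was -1.3 median absolute deviations from the sample's median, against -7.2 for FET4. FTH1, at 0.24, was lowest at 20 min as well. Unlike FET4, SMF3 was above the pool at 60 min, where 11.4% of all genes were at least 2-fold higher. At 120 min SMF3 was level with the pool.

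AFT1, the main activator of iron uptake genes, was above the pool at all 5 times, at 0.34, 0.72, 0.40, 1.04 and 0.77. Its highest rank was 214 of 6264 genes, at 120 min, where it lay 3.36 median absolute deviations above the sample's median. AFT2 was at 0.32, 0.12, -0.26, -0.46 and 0.30, with no constant side of the pool. AFT1 exceeded AFT2 in 5 of 5 samples, by 0.015 at 5 min and between 0.47 and 1.501 later. Neither regulator had a value in the self-hybridisation.

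Counted at a 2-fold threshold, 0 of the 10 genes were higher at 5 min, where 1.08% of all genes were. Both FET3 and FTR1 were higher at 10 min and again at 20 min, beside 2.2% and 2.24% of all genes. At 60 min 6 were higher, namely FET3, FTR1, FTH1, ATX1, SMF3 and AFT1, beside 11.4% of all genes, and 3 (FET3, FTR1 and FTH1) were once that sample was centred on its median of 0.091. At 120 min FET3 alone was higher, beside 1.47% of all genes. FET4 at 20 min was the single case of a level at least 2-fold lower, beside 1.01, 2.76, 2.5, 12.9 and 1.72% of all genes in order of time. In either direction the shares of all genes were 2.09, 4.96, 4.74, 24.3 and 3.19%. The median of the 10 genes was 0.29, 0.33, 0.34, 1.06 and 0.48 at the 5 times, where the median of all genes lay between -0.013 and 0.091. FTR1, FTH1, CCC2 and AFT1, 4 of the 10, were above the pool at every time, beside 9.36% of all genes, and 0 were below it at every time, beside 7.19%.

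Averaged over the 5 times, 9 of the 10 genes were above the pool, beside 50.5% of all genes, and 0 passed the test over all 5771 genes, in which 0.0% were called. In limma the mean was 1.56 ± 0.25 for FTR1 (SE, n = 5; adjusted p = 0.0834), 2.07 ± 0.50 for FET3 (adjusted p = 0.136) and 0.66 ± 0.15 for AFT1 (adjusted p = 0.126). CCC2 averaged 0.49 ± 0.15 and FTH1 0.53 ± 0.17, with limma adjusted p of 0.192 and 0.218. The means of ATX1, SMF3, FET5 and AFT2 were 0.40 ± 0.19, 0.30 ± 0.20, 0.18 ± 0.13 and 0.0054 ± 0.16, and FET4 averaged -0.33 ± 0.27, or -0.0025 without the 20 min sample. Without the 60 min sample the mean was 0.23 for ATX1 and 0.11 for SMF3, and without the 20 min sample that of SMF3 was 0.45. At an unadjusted p under 0.05, 5 of the 10 were higher (FTR1, AFT1, FET3, CCC2 and FTH1) and 0 lower, beside 7.9% and 6.2% of all genes. The pool's own spread is left out of this test and the flasks differ in time, so change over time counts as error.

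The call for FTR1 depended on how the samples were scaled or weighted. Without the 60 min sample alone it averaged 1.31 and did not pass (limma adjusted p = 0.0533). Once all samples were brought to 1 common spread, FTR1 passed for the mean at 1.61 (limma adjusted p = 0.0106), as 1 of 31 genes called higher (0.537%), and for the early response at 1.88 (adjusted p = 0.0185, beside 0.728% of all genes). With array weights, which lower the weight of samples that vary more, 4 of the 10 passed, namely FTR1 at 1.48, FET3 at 1.78, AFT1 at 0.60 and CCC2 at 0.48, beside 5.37% of all genes called higher. Their limma adjusted p were 0.00384, 0.0132, 0.0133 and 0.0346. FTR1 alone passed for the early response with these weights, at 1.43 (limma adjusted p = 0.0474), beside 0.936% of all genes.

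Over the late samples (60 and 120 min) the oxidase averaged more than over the early ones (5 and 10 min), while the averages of the permease were closer together. FET3 averaged 3.19 ± 0.67 late and 1.09 ± 0.67 early, and FTR1 averaged 1.75 ± 0.45 late and 1.43 ± 0.45 early (SE, limma, n = 2 samples per phase). The late minus early difference was 2.10 ± 0.95 for FET3 and 0.32 ± 0.64 for FTR1 (limma adjusted p = 0.788 and 0.889). Both moved when 1 sample was left out: for FET3 it was 0.93 without 5 min, 1.13 without 60 min, 3.27 without 10 min and 3.07 without 120 min, and it passed in none of these fits. For FTR1 it turned to -0.16 without 5 min, -0.49 without 60 min and -0.63 with the samples brought to 1 common spread. With that common spread the difference was 1.18 for FET3 (limma adjusted p = 0.74). For ATX1 the unscaled difference was 0.92 ± 0.34, with averages of 0.84 ± 0.24 late and -0.080 ± 0.24 early (limma adjusted p = 0.788). It was the one difference in the set below 0.05 before adjustment, beside 1.42% of all genes higher and 2.18% lower in that way. FET4 was on opposite sides of the pool in the 2 phases, at -0.24 ± 0.22 late and 0.23 ± 0.22 early, a difference of -0.47 ± 0.32 (limma adjusted p = 0.788). Of the 10 genes, 0 passed limma's test of the late response, the early response or the difference, as did 0.0% of all genes. Unadjusted, 5 of the 10 (FET3, FTR1, AFT1, ATX1 and FTH1) were higher late, beside 5.6% of all genes, and FTR1 alone was higher early, beside 1.58%. None of the 10 was lower in either phase in that way, beside 5.2% late and 1.96% early.

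**Figure D4:**
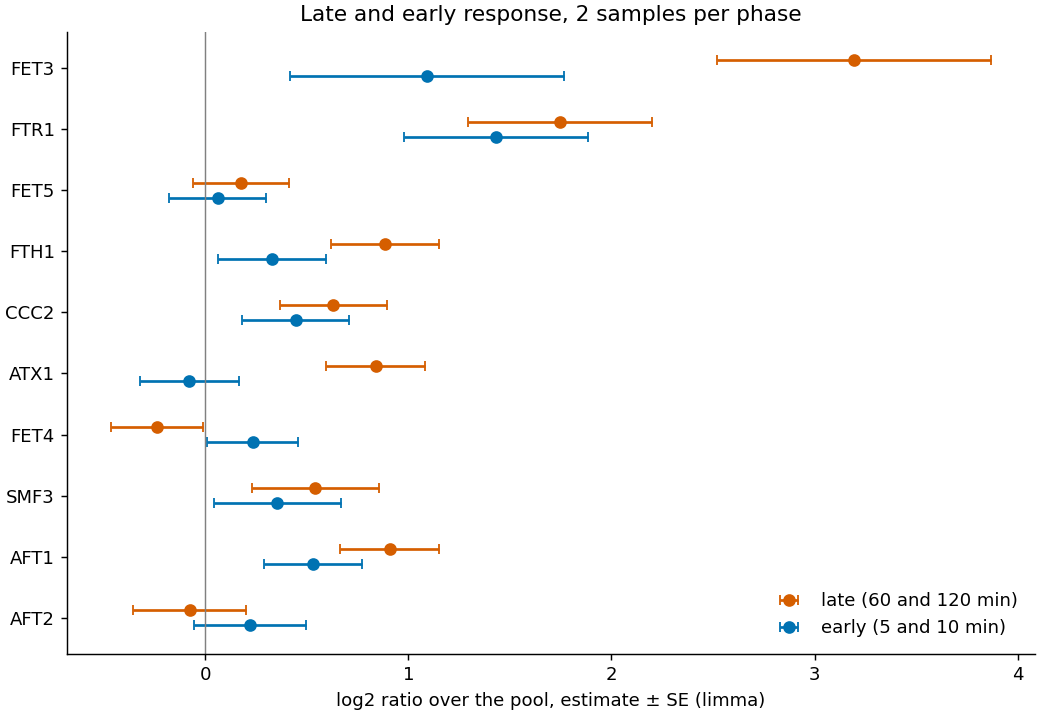
Estimates from limma of the late response (60 and 120 min, orange) and the early response (5 and 10 min, blue) for each of the 10 genes, as log2 ratios over the pool with SE bars. FET3 has the widest gap, 3.19 late and 1.09 early, ATX1 is at 0.84 late and -0.080 early, and FET4 crosses 0.

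Without the 120 min sample the late estimate rests on the 60 min sample alone. Then 6 of the 10 genes passed as higher late, beside 16.0% of all genes, and ATX1 passed for the difference at 1.15 (limma adjusted p = 0.0423), beside 9.15%. Without the 5 min or without the 10 min sample FET3 and FTR1 passed as higher late, beside 0.483% and 0.499% of all genes. As a slope per doubling of aeration time, FET3 changed by 0.56 ± 0.24 and ATX1 by 0.22 ± 0.09 (limma adjusted p = 0.936 for each). The slope of FET3 was 0.24 without 5 min, 0.37 without 60 min and 1.05 without 120 min, and that of ATX1 was 0.35 without 120 min. The other 8 slopes lay between -0.10 and 0.12, and 0 of the 10 passed, beside 0.0173% of all genes. ATX1 was the one of them below 0.05 before adjustment, beside 1.2% of all genes with a positive and 1.59% with a negative slope in that way.

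Profiles over the 5 times were compared by the root mean squared difference of log2 ratios, among 5288 named genes. The ratios were not scaled to each sample's spread, so the wide 60 min sample can weigh most in these differences. Nearest to FET3 were SIT1, a siderophore transporter (0.78), NDE1, a mitochondrial NADH dehydrogenase (0.80), YHR033W (0.90), FUR4, the uracil permease (0.91), and PNO1, a ribosome biogenesis factor (0.92). FTR1 was at rank 8, with 1.05, and AFT1 was the next of the set at rank 148. Their Pearson correlations with FET3 were 0.82 and 0.91. SIT1 was at 0.50, 0.81, 1.18, 4.41 and 1.75 at the 5 times. In log2 ratios it shared the 60 min maximum of FET3 but was at 0.81 where FET3 was at 2.26, at 10 min. In median absolute deviations 60 min was not the maximum of FET3, at 7.39 against 9.56 at 120 min.

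Nearest to FET4 were FAA4, a fatty acyl-CoA synthetase (0.17), HAP1, the heme-responsive activator (0.20), ERG11, of ergosterol synthesis (0.28), UPC2, a sterol regulator (0.31), and ECT1, of phospholipid synthesis (0.34). All 5 were lowest at 20 min, between -1.61 and -1.23, and between -0.66 and -0.053 at 60 and 120 min. By this difference the nearest of the other iron genes was AFT2, at rank 639, with SMF3 at 2076 and FET3 at 5284 of 5288. The measure also grows with the size of the ratios. Pearson correlation with FET4 gave another order, at 0.61 for SMF3, 0.49 for AFT2 and -0.09 for FET3. These likenesses rest on 5 points that share the pool and are descriptions.

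**Figure D5:**
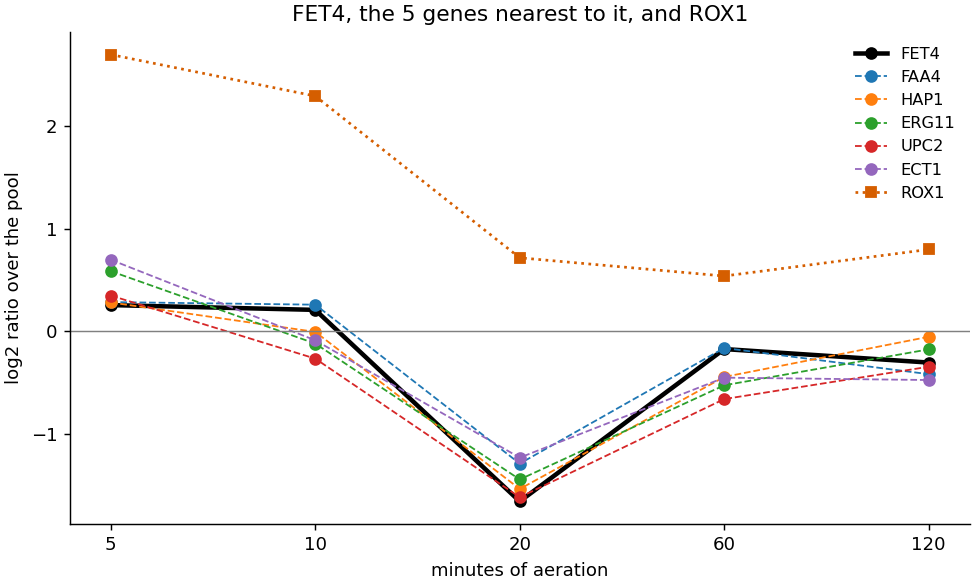
Log2 ratio over the pool against minutes of aeration (evenly spaced, 1 sample per time) for FET4 (black), the 5 genes with the nearest profiles (dashed) and ROX1 (orange squares). FET4 and its 5 neighbours share the 20 min minimum, between -1.65 and -1.23, while ROX1 is highest at 5 min, at 2.69.

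ROX1, the repressor known to act on FET4, was at 2.69, 2.29, 0.72, 0.54 and 0.80. FET4 was at 0.26, 0.21, -1.65, -0.17 and -0.30 at the same times, and at -0.26 in the self-hybridisation. A link between the courses of ROX1 and FET4 was not tested. Among 12 genes known to be repressed by Rox1, ROX1 itself included, the number at least 2-fold lower was 0, 2, 7, 5 and 4 over the 5 times, beside 1.01, 2.76, 2.5, 12.9 and 1.72% of all genes. The number at least 2-fold higher was 4, 1, 0, 1 and 0, beside 1.08, 2.2, 2.24, 11.4 and 1.47%. The 4 at 5 min were ROX1, HEM13 of heme synthesis (1.32) and the cell wall genes TIR1 (2.24) and DAN1 (1.96), and the last 3 of these were between -4.25 and -0.92 at 10 min. The median of all 12 genes was -1.15 at 20 min. Over the 5 times 3 of the 12 means were above 0 and 9 below, beside 50.5% of all genes above. The highest mean was that of ROX1 (1.41) and the lowest that of TIR1, a cell wall mannoprotein gene (-3.06). The means of AAC3 (0.40) and SUT1 (0.35) were also above 0, and that of ANB1 was close to 0 (-0.04). The 12 genes thus had no common course.

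The rest of the Aft1 and Aft2 regulon had no common direction. Of 19 such genes with a value at every time, 13 had a mean above the pool and 6 below it, beside 50.5% of all genes above, with a median of 0.073, beside 0.0035 for all genes and 0.44 for the 10 iron genes. SIT1 had the highest mean, 1.73 ± 0.52, and FIT3, a cell wall mannoprotein that holds siderophore iron, the lowest, -1.32 ± 0.55 (SE, n = 5; limma adjusted p = 0.187 and 0.333). FIT3 was at 1.44 at 5 min and at -1.57, -1.19, -2.64 and -2.62 later. TIS11, which promotes decay of mRNAs of iron-using proteins, was at 0.75, 0.99, 0.27, 1.69 and 1.40, and at -1.44 in the self-hybridisation. In all 5 limma comparisons 0 of the 19 passed. Unadjusted, 5 were higher and 3 lower for the mean, beside 7.9% and 6.2% of all genes. Early, 4 were higher and 2 lower, beside 1.58% and 1.96%, and late 4 were higher and 3 lower, beside 5.6% and 5.2%. For the difference 3 were higher and 4 lower, beside 1.42% and 2.18%. The slope was positive for 2 and negative for 4, beside 1.2% and 1.59%.

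Genes of copper supply, on which Fet3 depends, had ratios far apart from one another. CTR1, the high-affinity copper transporter of the cell surface, was at -1.15, -2.16, -2.42, -1.55 and -1.41, the lowest mean of the 11 copper genes at -1.74 ± 0.21 (limma adjusted p = 0.0663). FET3 exceeded CTR1 in 5 of 5 samples, by 1.08 at 5 min and between 3.63 and 5.71 later. CUP1-1, a copper metallothionein gene with an identical copy that the array cannot tell from it, had the highest mean, 2.54 ± 0.69. The other 9 means lay between CTR1 and CUP1-1, and 0 of the 11 passed in limma. Of the 11 means 9 were above 0, CUP1-1 and its copy both counted, beside 50.5% of all genes. Unadjusted, 3 were higher and 1 lower for the mean, beside 7.9% and 6.2% of all genes. The 3 include both CUP1-1 and its copy. Early, 2 were higher and 1 lower, beside 1.58% and 1.96%, and late 0 were higher and 1 lower, beside 5.6% and 5.2%. The difference had 0 higher and 0 lower, beside 1.42% and 2.18%. For the slope 0 were positive and 1 negative, beside 1.2% and 1.59%.

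Of 11 other iron, manganese, zinc and related transporters, 7 had a mean above 0, from GGC1, a mitochondrial GTP and GDP carrier with a part in iron homeostasis, at -0.97 ± 0.17, to ZRT3, the vacuolar zinc exporter, at 0.92 ± 0.41. In a list of 11 genes drawn up for maturation and trafficking of the Fet3 and Ftr1 proteins, 3 had a mean above 0. The means ran from VPS17, of the retromer coat, at -0.47 ± 0.16 to CCH1 at 0.27 ± 0.16. CCH1 is a calcium channel subunit, and its part in the trafficking of these proteins was not checked. Of 9 genes that relay iron status to Aft1 and Aft2, 5 had a mean above 0, from GRX4, a monothiol glutaredoxin, at -0.35 ± 0.16 to GSH1, of glutathione synthesis, at 0.37 ± 0.21. Of all genes, 50.5% had a mean above 0. The limma test called 0 genes of these 3 lists in all 5 comparisons. Unadjusted, 1 of the transporters was higher and 1 lower for the mean, beside 7.9% and 6.2% of all genes. Late, 2 transporters were higher and 1 lower, beside 5.6% and 5.2%, and for the slope 3 were positive and 1 negative, beside 1.2% and 1.59%. Early, 0 transporters were higher and 1 lower, beside 1.58% and 1.96%, and for the difference 2 were higher and 0 lower, beside 1.42% and 2.18%. Of the trafficking genes 1 was lower for the mean and 0 passed unadjusted elsewhere. Of the iron relay genes 1 was higher early and 1 had a negative slope, and 0 passed unadjusted for the mean, the late response or the difference.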

How the data were processed

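The deposited table holds 6495 features and 6 samples as log ratios that the authors had normalized and condensed over dye swaps, per the series' design text. The log base is not stated. The deposited values were read as natural log from 1 value, the lowest, since -4.6051702 is the natural log of 0.01, and were divided by 0.6931 to give log2 ratios. If they were log2 already, every ratio here would shrink by that factor. How they were normalized, background-corrected and filtered is not given in the sources used here. Spot signals were not used, and precision is limited by the number of arrays. No pair of samples correlated below -0.108 over genes.

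Platform symbols, matched by gene identifier to the R64 table, named 5754 features, and 25 genes with 2 features were averaged. Tests used limma 3.58.1 (R 4.3.3) on 5771 genes with all 5 aerated values, two-sided, with Benjamini-Hochberg adjustment over all of them and a threshold of 0.05. They gave the mean against 0, the early (5 and 10 min) and late (60 and 120 min) response and their difference, and the slope on log2 minutes. The 5 times, 1 flask each, served as replicates. The fits were tested on simulated data. Alternatives were leaving out each time, centring, scaling, array weights, another log base and a filter of 4 of 5 values. The 10 genes, the lists and the tests were chosen with earlier results of these data known. All 10 genes are named, with the highest and lowest mean of each list, ROX1, CTR1, SIT1, TIS11, and the 5 nearest profiles to FET3 and FET4. HEM13, DAN1, AAC3, SUT1 and ANB1 of the Rox1 list are named as well. Planned motif and protein comparisons were not made.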

Additional observations from a re-analysis of the deposited data

How the results depend on the processing

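With 1 sample per time, single times have no error and each early or late value rests on 2 samples. No paired analysis was possible because each time has 1 sample. The counts of genes past limma's threshold moved with the scaling and weighting of all samples: scaling gave 65 for the mean, 77 for the early response and 2 for the slope, array weights gave 552, 106 and 0, and centring gave 0 for the slope, against 0, 0 and 1. Leaving out 60 min alone gave 6 genes for the mean and 0 early. Leaving out 1 time gave 0 to 13 genes for the mean, 0 to 17 early, 0 to 1839 late, 0 to 1099 for the difference and 0 for the slope. Without 5 or 10 min the late test called 91 and 94 genes, FET3 and FTR1 among them, from fits with 1 residual degree of freedom in which a lone sample is assumed to vary like the others. Without 120 min the error of the late test and of the difference comes from the 5 and 10 min samples alone, and the wide 60 min sample is judged by it. Read as log2, the 2-fold counts were 51, 122, 117, 622 and 50 genes at 5, 10, 20, 60 and 120 min, with 2 members at 60 min. At 1.5-fold they were 529, 897, 941, 2867 and 829 genes, with 1, 4 and 4 members at 5, 10 and 120 min. Centring left 3 members at 60 min.

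Of 500 alternatives for single members, 450 kept direction and side of the threshold, 18 newly passed and 32 turned direction, and these had passed in neither setting. For the mean, AFT2 (0.0054) was -0.0097 centred and -0.074 to 0.12 leaving out 1 time. For the early response, leaving out 1 time gave FET3 -0.074 to 2.26 and FET5 -0.086 to 0.21, each lowest without 10 min. For the late response, AFT2 was 0.068 scaled and -0.46 to 0.30 leaving out 1 time. For late minus early, scaling gave FTR1 -0.63, CCC2 -0.080 and SMF3 -0.21. Leaving out 1 time gave FTR1 -0.49 to 1.13, FET5 -0.032 to 0.26, CCC2 -0.087 to 0.46, SMF3 -0.34 to 0.71 and AFT2 -0.68 to 0.083. For the slope, scaling gave FTR1 -0.15 and SMF3 -0.066, and array weights FTR1 -0.030, CCC2 -0.0029 and SMF3 -0.10. Leaving out 1 time gave FTR1 -0.11 to 0.38, FET5 -0.050 to 0.11, CCC2 -0.010 to 0.14, FET4 -0.21 to 0.033, SMF3 -0.086 to 0.16 and AFT2 -0.23 to 0.023. The cause of these turns was not tested. FTH1, ATX1 and AFT1 turned under no alternative tried, and the FET3 minus FET5 and FTR1 minus FTH1 differences kept their sign under all of theirs.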
